A study of Mus musculus with 18 samples.

Results

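In mouse embryonic fibroblasts (MEFs), 902 H3K27ac peaks at promoters of WT cells shared no base with an H3K27ac peak of Kap1 KO cells. They were taken from 11003 promoter peaks of the WT list, of which the 902 made up 8.2% (95% confidence interval 7.69% to 8.73%), and from 30995 WT peaks of any position on the same 17 chromosomes. A WT peak was chosen when it lay within 1 kb of a transcript start of the mm9 GENCODE annotation and shared no base with a Kap1 KO H3K27ac peak, on the autosomes without chromosomes 4 and 10. A Kap1 KO peak beside the member was allowed, and 65 members had one within 1 kb, so a member does not mean a promoter free of H3K27ac in Kap1 KO cells. The members were thus selected on the H3K27ac lists themselves, and their number, scores, widths and distances to Kap1 KO peaks are a description.

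Both groups were embryonic MEFs of a background labelled C57BL/6, which the study's methods give as C57BL/6J. The WT cells carried Kap1 loxP/loxP alleles that had not been excised, and in the Kap1 KO cells the gene was deleted. Each genotype had 1 library for H3K27ac and 1 for H3K9me3, and KAP1 and SETDB1 peaks came from 1 library each of Hepa 1.6, a mouse hepatoma line. The study's methods describe the Kap1 KO MEFs of its RNA-Seq as a stably growing clone kept for many passages, and whether the ChIP-seq used that clone is not given in the sources used here. There was no replicate, so the spread between libraries could not be measured and no test was run between genotypes.

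H3K27ac is an acetyl mark on histone H3 that is found at active promoters and enhancers. KAP1 (also Trim28) is a corepressor that KRAB zinc finger proteins bring to DNA, where it recruits SETDB1, the enzyme that writes the repressive H3K9me3 mark. Promoters of broadly used genes mostly lie in CpG islands, stretches rich in the dinucleotide CG, while many promoters of tissue-restricted genes do not.

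The 2 H3K27ac lists were of similar size, with 36275 peaks in WT and 36436 in Kap1 KO MEFs, whereas the H3K9me3 lists held 14425 and 4319 peaks. The number of reads behind a peak is unknown here, and weak signal that missed the calling threshold leaves no peak. A mark that is weaker in each cell and one that is present in fewer cells cannot be told apart. H3K27ac peaks lay at a transcript start of 13 of 15 fibroblast marker genes in WT and 12 of 15 in Kap1 KO MEFs. For 39 annotated markers of other cell types the numbers were 5 and 8, and the part of cell makeup or depth in the results was not tested. The Trim28 promoter carried a peak with a score of 3100 in both genotypes, and a peak at the promoter does not check the deletion.

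Sequences upstream of several member starts show the kinds of promoter involved. Each is the 150 bases before the start in the direction of transcription, read 5′ to 3′ from mm9 outside annotated exons, with CG dinucleotides in capitals. Only members at protein-coding starts whose window was free of exons were taken, and many scores are tied at a ceiling, so the sets are examples and not a ranking. The first set holds 4 members with an H3K9me3 peak in Kap1 KO cells.
Rftn1, chr17:50330000-50330149, minus strand: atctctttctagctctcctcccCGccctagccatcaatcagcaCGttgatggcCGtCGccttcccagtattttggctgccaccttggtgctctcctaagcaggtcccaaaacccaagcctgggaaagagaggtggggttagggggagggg
Zfp423, chr8:90483495-90483644, minus strand: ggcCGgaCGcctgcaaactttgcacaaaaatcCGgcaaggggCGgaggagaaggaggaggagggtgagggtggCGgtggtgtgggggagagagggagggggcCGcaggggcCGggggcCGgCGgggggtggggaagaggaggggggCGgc
Nr3c2, chr8:79426037-79426186, plus strand: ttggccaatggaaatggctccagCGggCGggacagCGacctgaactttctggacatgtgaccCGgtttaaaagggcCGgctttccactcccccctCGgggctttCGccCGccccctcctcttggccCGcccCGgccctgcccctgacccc
Dock8, chr19:25073869-25074018, plus strand: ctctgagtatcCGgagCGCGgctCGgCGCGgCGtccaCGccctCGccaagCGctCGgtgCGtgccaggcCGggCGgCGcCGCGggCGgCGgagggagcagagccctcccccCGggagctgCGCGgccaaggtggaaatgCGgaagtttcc
The second set holds 2 members at the ceiling with a CpG island-like start and no H3K9me3 peak in Kap1 KO cells. Such a start has, in the 1 kb centred on it, at least 50% G and C and at least 0.6 times the CG dinucleotides that its base composition would give.
Syde2, chr3:145650684-145650833, plus strand: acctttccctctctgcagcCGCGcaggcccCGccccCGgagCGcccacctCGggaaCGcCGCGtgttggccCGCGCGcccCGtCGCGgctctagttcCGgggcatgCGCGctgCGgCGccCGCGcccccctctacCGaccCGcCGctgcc
Trim44, chr2:102241058-102241207, minus strand: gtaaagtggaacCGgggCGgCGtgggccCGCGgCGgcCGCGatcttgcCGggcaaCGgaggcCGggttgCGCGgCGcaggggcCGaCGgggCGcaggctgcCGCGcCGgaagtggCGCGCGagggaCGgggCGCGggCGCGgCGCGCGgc
The third set holds 2 members at the ceiling without a CpG island-like start.
Ppp1r12b, chr1:136700429-136700578, minus strand: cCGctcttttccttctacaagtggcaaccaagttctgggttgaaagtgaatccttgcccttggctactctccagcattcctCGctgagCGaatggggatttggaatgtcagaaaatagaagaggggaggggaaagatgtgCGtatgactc
Pax6, chr2:105511867-105512016, plus strand: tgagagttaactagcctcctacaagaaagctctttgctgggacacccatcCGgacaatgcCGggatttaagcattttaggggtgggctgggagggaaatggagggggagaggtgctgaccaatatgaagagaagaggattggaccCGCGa
These windows held 31 CG dinucleotides for Trim44, 25 for Syde2, 23 for Dock8 and 10 each for Zfp423 and Nr3c2. Ppp1r12b and Pax6 held 4 each. The start of Nr3c2 missed the island limits with a ratio of 0.5, and that of Rftn1 passed them with 0.78 over 1 kb although its upstream window held 4.

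Members had low H3K27ac scores in WT cells. The score is the one deposited with each peak, −10 times the log10 of the MACS p-value, and it reaches a ceiling at about 3100. The members ranged from 50.04 to 3132.19 with a median of 164 and quartiles of 90.0 and 402. The 10101 promoter peaks that shared bases with a Kap1 KO peak had a median of 3100 and a lower quartile of 2255. Members were also narrower, with a median of 1290 bp against 2775 bp.

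The share of promoter peaks without a Kap1 KO peak went down with each step of the WT score. Under 100 it was 278 of 447 peaks, or 62.2% (57.5% to 66.7%). Between 200 and 500 it was 29.1% (25.8% to 32.6%), and between 1500 and 3100 it was 2.77% (2.0% to 3.72%). At the ceiling 14 of 6788 peaks were members, or 0.206% (0.113% to 0.346%). For comparison, 29.5% of the WT H3K27ac peaks farther than 1 kb from a start had no Kap1 KO peak. In the other direction, 5.2% of the Kap1 KO promoter peaks had no WT peak.

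**Figure D1:**
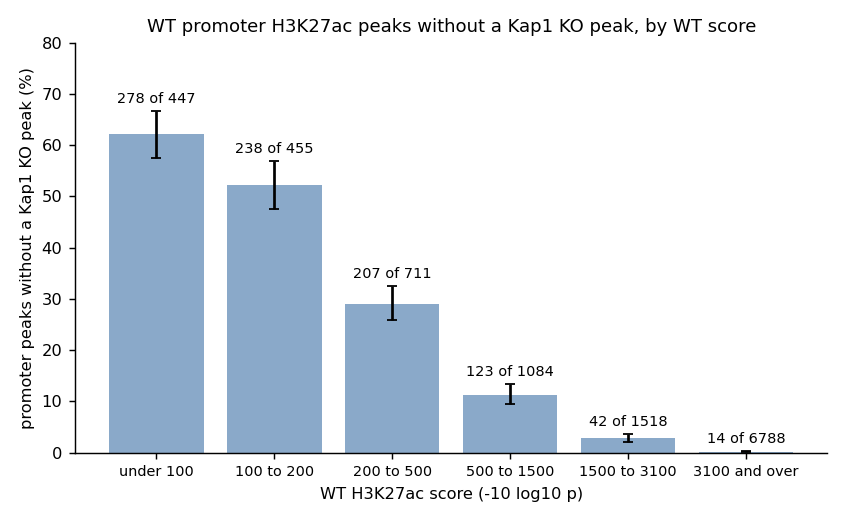
Percent of WT promoter H3K27ac peaks without a Kap1 KO peak (y axis, bars from 0) in 6 bins of the WT score (x axis, −10 log10 p), with exact 95% intervals as error bars and the counts above them. The bars go down from 62.2% under a score of 100 to 0.206% at the ceiling.

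There were 14 members with a score at the ceiling, where scores do not rank peaks. Ppp1r12b, a regulatory subunit of myosin phosphatase, had the highest score, 3132, over chr1:136699042-136702127. Its peak covered a start 152091 bp downstream of the first annotated start of the gene, and a Kap1 KO peak was present at another start. Pax6, a homeobox factor of eye and brain, carried a WT peak of 6003 bp over an inner start and over the antisense gene Pax6os1. A Kap1 KO peak with a score of 3100 lay 1562 bp from it.

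Signalling genes were found among these 14 members. Fgfr2, a receptor of fibroblast growth factors, had a WT peak of 4889 bp at chr7:137405621-137410509, and the closest Kap1 KO peak was 224609 bp away. The peak covered a start 2905506 bp downstream of the first start annotated to the gene. A Kap1 KO peak was present at another annotated start, which cannot be near this one. Whether that distant start is a promoter of Fgfr2 was not tested. Flt1, a receptor of vascular endothelial growth factor, had a WT peak of 2757 bp, and the closest Kap1 KO peak was 15325 bp away. Ltbp1, which binds latent TGF-beta, had a WT peak of 2796 bp at chr17:75403652-75406447 and had a Kap1 KO peak at another start. Rgs12, a regulator of G protein signalling, also had one at another start, and the closest Kap1 KO peak was 37344 bp away with a score of 3083.

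The rest included genes of the matrix, the limb and the cell membrane. Adamts5, a protease that cuts aggrecan, had a WT peak of 2836 bp, and no Kap1 KO peak was found within 46700 bp. Hoxa11, a homeobox gene of the developing limb, shared a peak of 4729 bp with its antisense gene Hoxa11as, and a Kap1 KO peak with a score of 367 lay 1200 bp away. Lrrc4c, a synaptic adhesion protein, stood farthest from any Kap1 KO peak of all members, at 3014705 bp. Rftn1, which codes for the lipid raft protein raftlin, was 312277 bp from the closest one. Syde2, Trim44 and Als2cl were between 29066 and 48886 bp away. Il25, a cytokine gene, entered only through a peak 993 bp from its start, so that this peak lies just inside the limit of the rule.

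The next protein-coding members by score were Slc22a4 (2848), an organic cation transporter, Foxd1 (2814), a forkhead factor, and Map1lc3a (2648), an autophagy protein. Slc38a4 (2626), an amino acid transporter, Zfp423 (2625), a zinc finger factor of adipocyte precursors, and Sphk1 (2451), a sphingosine kinase, followed. For Slc38a4 a Kap1 KO peak with a score of 176 lay 3463 bp away, while for Zfp423 the closest was 94137 bp away. The 5 widest members lay at Apbb2 (6408 bp), Pax6, Fgfr2, Lrfn5 (4776 bp) and Hoxa11.

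Members lay at 925 genes, of which 731 were protein-coding. Of all 12359 genes with a WT promoter peak, 7.48% had a member, and since the rule fixed this contrast, counts by gene family are given beside that percent without reading more from them. The families were set by patterns of gene symbols, so a list can hold genes outside the class in its name. Ion channel genes had a member at 17 of 70 genes, or 24.3% (14.8% to 36.0%). They were led by the potassium channels Kcnh2 (1957) and Kcnj2 (1494), the glutamate receptor subunit Grin2d (774) and the potassium channel Kcnh3 (745). Homeobox and other developmental transcription factors, with antisense genes of their names, had 23 of 139, or 16.5% (10.8% to 23.8%). Hoxa11 and Pax6 led this list, each sharing its peak with an antisense gene that is counted too.

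Axon guidance genes had 8 of 41 (19.5%), among them the semaphorins Sema6d (2406), Sema3d (399) and Sema3b (330) and the ephrin receptor Epha1 (1132). Genes of the extracellular matrix had 8 of 47 (17.0%). For Col1a2, a chain of type I collagen that also served as a fibroblast marker, there were 3 members, with scores of 208, 155 and 91.0, and a Kap1 KO peak was present at another start. G protein-coupled receptors had 9 of 56 (16.1%), with the adrenergic receptors Adrb1 (2365), Adra2a (406) and Adra1d (348) and the zinc-sensing receptor Gpr39 (794). Cytokines and their receptors had 8 of 50 (16.0%), growth factor signalling 13 of 107 (12.1%), with the activin subunit Inhbb (862), Wnt7b (566) and Smad3 (360), and detoxification enzymes 8 of 46 (17.4%), with Aldh5a1 (1180) first. Small GTPases and their regulators, a list that also held regulators of G protein signalling such as Rgs12, had 20 of 169 (11.8%). Of these 20 genes, 10 had a Kap1 KO peak at another start.

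Further lists had shares from 7.92% to 21.4%. Solute carriers had 18 of 185 (9.73%), with the fatty acid transporter Slc27a1 (1092) after Slc22a4 and Slc38a4, and matrix proteases and their inhibitors had 6 of 52 (11.5%), with Serpine2 (1276) and Mmp15 (548) after Adamts5. Lipid metabolism had 5 of 35 (14.3%), with the transcription factors Srebf1 (2265), Ppara (626) and Pparg (449). Cell surface immune genes had 8 of 56 (14.3%), with the complement regulator Cd55 (810) first, and integrins and cadherins 4 of 43 (9.3%), with the claudin Cldn1 (495) first. Contractile genes had 5 of 34 (14.7%), keratins and epithelial genes 3 of 14 (21.4%), germline genes 2 of 17 (11.8%) and immediate early genes 6 of 44 (13.6%). Among microRNA genes there were 8 of 101 (7.92%), led by Mir1199 (1818), and among other small RNA genes 32 of 326 (9.82%), led by SNORA32 (2997). Genes with a clone or model name only had 210 of 2343 (8.96%).

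A member was found at less than 7.48% of the genes in 6 lists. Ribosomal protein genes had 2 of 152, or 1.32% (0.16% to 4.67%), and replication-dependent histone genes had 2 of 69, or 2.9% (0.353% to 10.1%). Zinc finger proteins, the class that recruits KAP1 when a KRAB domain is present, had 11 of 315, or 3.49% (1.76% to 6.16%). These were led by Zfp423, Zbtb42 (1368), Zfp941 (927) and Zfp667 (433). Cell cycle and p53 genes had 6 of 93, or 6.45% (2.4% to 13.5%), with the repressor E2f6 (1403) first. The interferon response genes on the list had 2 of 47, or 4.26% (0.52% to 14.5%), Gbp7 (245) and Ifi27l2a (80.9). The member Parp12 (2188), named below, was not counted in that list. The imprinted genes on the list had 0 of 17, which allows a share of up to 19.5%. That list was set by gene symbols, and imprinted genes outside it were not counted. The member Slc38a4 was counted with the solute carriers and not there, so the 0 does not mean that no imprinted promoter was a member. The intervals of ribosomal proteins and zinc finger proteins lay below 7.48%, and those of the other 4 lists included it.

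Some of these differences between lists moved with the score. The median of the highest promoter score per gene was 1271 for ion channels and 3100 for all genes and for zinc finger proteins. Among the 1144 genes whose highest promoter score was under 500, 502 had a member (43.9%). Within that range the share was 11 of 23 ion channel genes (47.8%), 8 of 16 zinc finger genes and 8 of 13 developmental factors (61.5%). Other lists, each of few genes in that range, lay farther from 43.9% on either side. Small GTPases and their regulators had 7 of 10 (70.0%) and axon guidance genes 6 of 9 (66.7%). Integrins and cadherins had 2 of 10 (20.0%) and interferon response genes 2 of 13 (15.4%). The part of the score in the differences between lists was not tested.

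**Figure D2:**
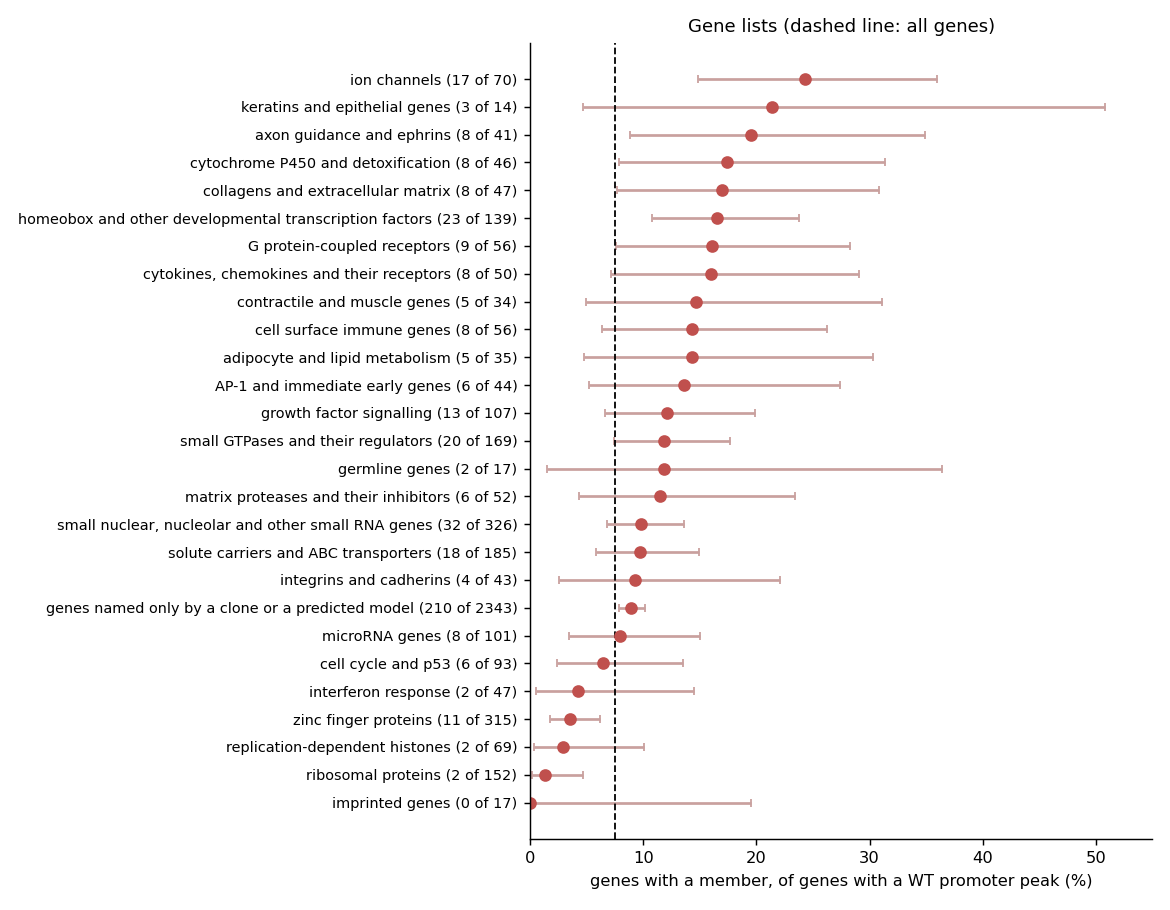
Percent of the genes with a WT promoter H3K27ac peak that had a member (x axis), for 27 gene lists (y axis, counts in brackets), with exact 95% intervals as bars and a dashed line at the 7.48% of all genes. Ion channels lie at 24.3% and ribosomal proteins at 1.32%.

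H3K9me3, which the rule did not use, was found at few members but more often than at other promoters. A mark was counted at a promoter when its peak shared a base with the H3K27ac peak or lay within 1 kb of the start. In Kap1 KO MEFs 14 of 902 members had an H3K9me3 peak, or 1.55% (0.851% to 2.59%), against 7 of 10101 other promoter peaks, or 0.0693% (0.0279% to 0.143%). Of all 21 WT promoter H3K27ac peaks with an H3K9me3 peak in Kap1 KO cells, 66.7% (43.0% to 85.4%) were members. In WT MEFs the shares were 20 of 902, or 2.22% (1.36% to 3.4%), and 57 of 10101, or 0.564% (0.428% to 0.731%). The intervals cover counting error only and do not overlap for either genotype.

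The difference was seen at scores of 500 and over. Among peaks with a WT H3K27ac score of at least 500, 9 of 179 members (5.03%, 2.32% to 9.33%) and 3 of 9211 others (0.0326%, 0.00672% to 0.0952%) had an H3K9me3 peak in Kap1 KO cells. For H3K9me3 in WT cells the numbers were 8 of 179 (4.47%, 1.95% to 8.62%) and 41 of 9211 (0.445%, 0.32% to 0.603%). By bin, Kap1 KO H3K9me3 was at 4.07% (1.33% to 9.23%) of members and 0.0% (up to 0.383%) of others between 500 and 1500, and at 7.14% (1.5% to 19.5%) and 0.0% (up to 0.25%) between 1500 and 3100. WT H3K9me3 was set apart only between 1500 and 3100, at 14.3% (5.43% to 28.5%) of members and 0.339% (0.11% to 0.789%) of others. Its intervals overlapped between 500 and 1500, and at the ceiling it was at 0 of 14 members (up to 23.2%) and 0.428% of others. In each of the 3 bins of the score under 500, the intervals of members and others overlapped.

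Of the 14 members with an H3K9me3 peak in Kap1 KO cells, 11 had none in WT cells. Among these 11, only Dock8 and Sgcz had an H3K9me3 score of at least 80, the cutoff that the authors state. The others lay between the floor of the list and that cutoff, which was not applied to the H3K9me3 lists here. Rftn1, at the H3K27ac ceiling in WT cells, had a Kap1 KO H3K9me3 peak with a score of 54.9 at chr17:50329552-50329896, 103 bp from the start. Nr3c2, the mineralocorticoid receptor, had one with a score of 62.3, and its WT H3K27ac score was 1743. Dock8, an activator of small GTPases, had the highest H3K9me3 score of the 14, 136, in a peak that covered its start at chr19:25073684-25074382. Its next H3K27ac peak, 2851 bp away in Kap1 KO cells, was present in both genotypes.

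The peaks also covered the starts of Rora, a nuclear receptor (64.7), Pogk, a gene with a KRAB domain (62.7), and Etnk2, an ethanolamine kinase (72.6). Dcp1b, an mRNA decapping factor, had a score of 67.4 at 117 bp from its start. A930038C07Rik, A730035I17Rik, Phactr3 and Sgcz were the other members of this kind, with H3K9me3 scores between 50.6 and 84.9. The 14 scores had a median of 68.3, in a list whose scores ran from 50.03 to 2341.

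The remaining 3 of the 14 had an H3K9me3 peak in both genotypes. Zfp423 had a score of 66.4 in WT and, 24 bp from its start, 104 in Kap1 KO cells. These 2 peaks shared no base. A second Kap1 KO peak, 732 bp downstream of the start, overlapped the WT one and had a score of 59.3. WT cells also had H3K9me3 peaks upstream of this start, one of 69.9 at 796 bp and a stronger one of 369 at 1422 bp, and no Kap1 KO H3K9me3 peak shared a base with either. Odz3, a teneurin, had 53.3 and 90.3. Wnt7b, a secreted signalling protein, had 53.9 and 102. For the peak closest to each start the Kap1 KO score was the higher one, but for the overlapping peaks of Zfp423 it was the lower one. Scores of separate lists are not normalised to each other. Of the 2 Wnt7b members, the one with the H3K9me3 peaks was the weaker (H3K27ac score 103), with a Kap1 KO H3K27ac peak at 1123 bp.

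**Figure D3:**
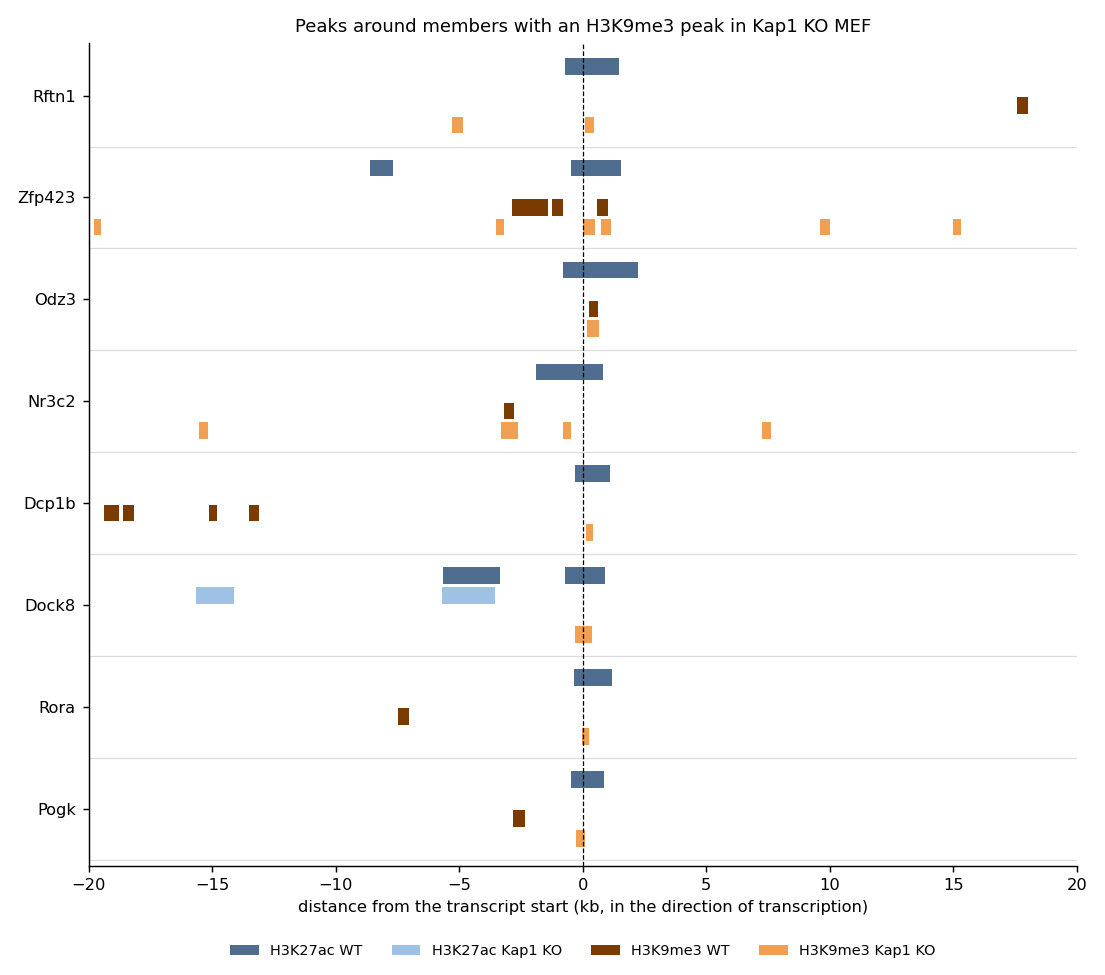
Peaks within 20 kb of the start (x axis, kb in the direction of transcription) for the 8 members of highest H3K27ac score with an H3K9me3 peak in Kap1 KO MEFs (y axis), in 4 rows per gene for H3K27ac in WT and Kap1 KO and H3K9me3 in WT and Kap1 KO. Within 1 kb of the start each gene has a WT H3K27ac and a Kap1 KO H3K9me3 peak, and of the 8 only Dock8 has Kap1 KO H3K27ac peaks in the window.

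In WT cells, H3K9me3 lay beside H3K27ac at 17 further members that had no H3K9me3 peak in Kap1 KO cells. Slc38a4 had an H3K9me3 score of 81.0 in WT cells. Adrb1 had the highest, 346, and Rims2, a protein of synaptic vesicle release, had 221. Parp12, a poly(ADP-ribose) polymerase of the interferon response, had 64.8, and Zcchc3, Arc, Hoxc11, Tcf15, Adra1d and Mapt had between 50.3 and 92.8. These 17 promoters had a peak of both marks in WT cells, and in Kap1 KO cells neither mark had a peak over the member. CpG island-like starts made up 16 of the 20 members with WT H3K9me3 and 11 of the 14 with Kap1 KO H3K9me3.

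KAP1 binding, measured in Hepa 1.6 cells, was found at 85 of 902 members, or 9.42% (7.6% to 11.5%), and at 29.8% (28.9% to 30.7%) of the other promoter peaks. This difference moved with the score as well. In the 5 bins under 3100 the intervals overlapped, for example 7.98% (4.87% to 12.2%) and 7.83% (4.63% to 12.2%) between 100 and 200. At the ceiling it was 7.14% (0.181% to 33.9%) of 14 members and 36.9% (35.8% to 38.1%) of the others. Members with a KAP1 peak included Hoxa11 (KAP1 score 1408), Slc22a4 (109), Foxd1 (213), Hmx2 (499), a homeobox gene, and Mdga1 (767). KAP1 was measured in another cell type than the H3K27ac, and only 3 of the 14 members with Kap1 KO H3K9me3 had such a peak. SETDB1 peaks of Hepa 1.6 cells lay at 23 of 902 members, or 2.55% (1.62% to 3.8%), and at 2.19% (1.91% to 2.49%) of the others, with overlapping intervals.

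Base composition around the assigned start set the members apart, and in 2 directions. It was not measured over the peak itself. An annotated start lay inside the peak for 70.4% of members and 94.4% of the other promoter peaks. The part of this in the differences of composition and motifs was not tested. Of the members, 29.8% (26.9% to 32.9%) had a CpG island-like start, against 67.6% (66.7% to 68.5%) of the other promoter peaks and 34.4% of all annotated starts on these chromosomes. In each bin of the score under 3100 the order turned. Between 200 and 500, 31.4% (25.1% to 38.2%) of members and 20.8% (17.4% to 24.6%) of others had such a start. Between 500 and 1500 it was 49.6% (40.5% to 58.8%) and 36.8% (33.8% to 40.0%), and in both bins the intervals do not overlap. They overlapped in the other bins under 3100. Under 100 the shares were 17.6% (13.3% to 22.6%) and 13.6% (8.83% to 19.7%). Between 100 and 200 they were 24.8% (19.4% to 30.8%) and 14.3% (9.92% to 19.7%). Between 1500 and 3100 they were 61.9% (45.6% to 76.4%) and 55.4% (52.8% to 58.0%). Under a score of 500 in all, such a start was found at 23.9% (20.9% to 27.2%) of members and 17.9% (15.4% to 20.5%) of others, 2 intervals that do not overlap. At the ceiling the members had the lower share, 64.3% (35.1% to 87.2%) against 81.2% (80.3% to 82.1%), with overlapping intervals.

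**Figure D4:**
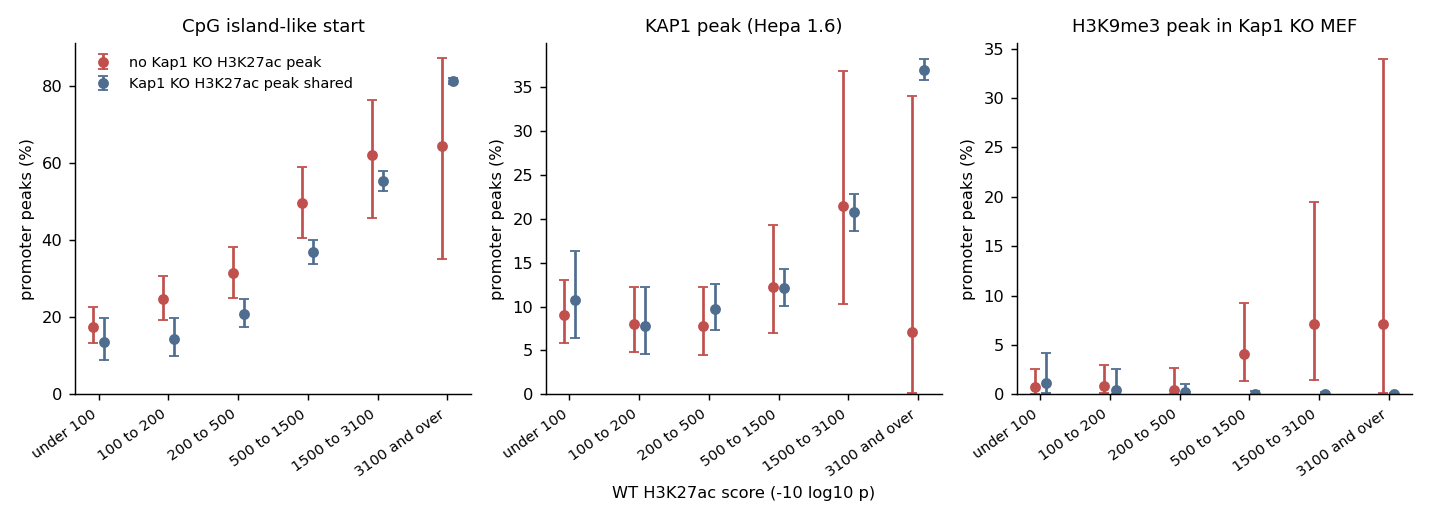
Percent of promoter peaks (y axes) with a CpG island-like start (left), a Hepa 1.6 KAP1 peak (middle) and an H3K9me3 peak in Kap1 KO MEFs (right), by bin of the WT H3K27ac score (x axes), for members (red) and other promoter peaks (blue), with exact 95% intervals. CpG island-like starts are more frequent among members in the 5 bins under 3100, with intervals apart only between 200 and 1500. KAP1 shares of the 2 groups have overlapping intervals in these 5 bins. Kap1 KO H3K9me3 is at 4.07% and 7.14% of members and 0.0% of others between 500 and 3100.

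Short motifs were counted in the window from 250 bases before to 50 bases after the start, on both strands. The AP-1 motif TGANTCA was present at 7.87% (6.2% to 9.83%) of members and 5.9% (5.45% to 6.38%) of other promoter peaks, with overlapping intervals, and at 6.89% of all annotated starts. Under a score of 500 the order was the opposite, with 8.44% (6.51% to 10.7%) of members and 13.6% (11.4% to 16.0%) of others. The GC box GGGCGG was present at 38.8% of members, 61.4% of others and 35.3% of all starts. Under a score of 500 it was at 36.0% (32.5% to 39.6%) of members and 29.8% (26.8% to 32.9%) of others, with overlapping intervals. The TATA box TATAAA was at 9.65% (7.8% to 11.8%) of members and 6.3% (5.83% to 6.79%) of others, and at 12.6% of all starts. The CCAAT box was at 31.4% (28.4% to 34.5%) and 35.8% (34.9% to 36.8%), and the E-box CACGTG at 6.1% (4.63% to 7.86%) and 9.43% (8.87% to 10.0%). The TATA box, CCAAT box and E-box were not compared within a range of the score, and the part of the score in their differences was not tested. A match of these letters is not a measured binding site.

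Kap1 KO H3K27ac peaks often lay near the member, whether or not WT cells had a peak there. A Kap1 KO peak lay within 1 kb of 65 members (7.21%), within 5 kb of 251 (27.8%, 24.9% to 30.9%) and within 50 kb of 741 (82.2%). The median distance was 11529 bp. Of the 925 genes, 28.6% had a Kap1 KO peak at another start. Among the 731 protein-coding genes it was 35.2% (31.7% to 38.7%). For 176 of these 731 (24.1%) only 1 start position is annotated, so that they could have no peak at another. For 470 (52.1%, 48.8% to 55.4%) of the members, none of 3 marks was found in Kap1 KO cells, namely H3K27ac within 5 kb, H3K27ac at another start of the assigned gene, or H3K9me3 at the promoter.

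**Figure D5:**
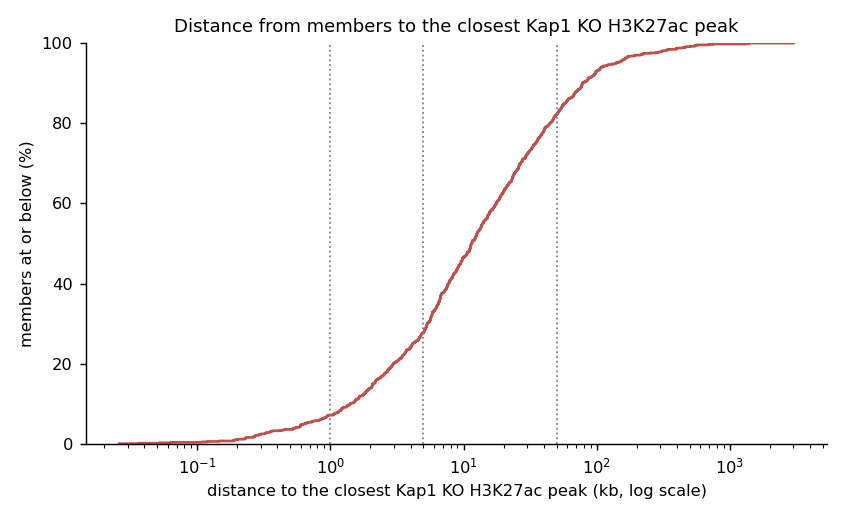
Cumulative percent of the 902 members (y axis) by the distance to the closest Kap1 KO H3K27ac peak (x axis, kb on a log scale), with dotted lines at 1, 5 and 50 kb. The curve passes 7.21%, 27.8% and 82.2% at these lines.

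Inner starts were common among the members. The start lay over 1 kb downstream of the first start of its gene for 35.3% (32.1% to 38.5%) of members and for 1520 of the 10101 other promoter peaks (14.4% to 15.8%). In the 4 bins of the score under 1500 the intervals overlapped, while between 1500 and 3100 the shares were 35.7% (21.6% to 52.0%) and 13.6% (11.9% to 15.5%). A protein-coding gene had a start within 1 kb of 757 members (83.9%) and of 94.3% of the others. Small RNA genes alone accounted for 50 members (5.54%) and for 1.78% of the others. Pseudogenes alone accounted for 30 members (3.33%) and for 0.911% of the others.

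Members were spread over all 17 chromosomes, from 5.34% (3.34% to 8.05%) of promoter peaks on chromosome 16 to 10.4% (8.7% to 12.3%) on chromosome 2. Of the 902, 695 had no member as the next promoter peak on either side, and 207 lay in 94 runs of neighbours. The longest run held 6 members at chr8:126065604-126136203, all at copies of the 5S ribosomal RNA gene (n-R5s102 to n-R5s143), with scores between 51.9 and 69.8. These copies are near identical, and how the authors placed reads among them makes their peaks uncertain. The next held 5 members over 86675 bp at Rgs12 and Dok7, a muscle synapse adaptor, with scores between 193 and 3100. A run of 4 covered 33498 bp at Capn5, a calpain, and Omp. Within 50 kb of members, 26.6% of the other WT H3K27ac peaks had no Kap1 KO peak either, against 18.7% around the other promoter peaks, and the same peak can be counted around several promoters. Among all WT peaks on these chromosomes the share was 8.2% at promoters and 29.5% farther from a start. The rule used these same lists, and the neighbours were matched neither by score nor by distance to a start. The 2 shares are thus a description. A Kap1 KO only peak lay within 50 kb of 270 of the members (29.9%) and 3654 of the others (36.2%).

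At the limits of the rule, the members farthest from a start were at Cbr2 (1000 bp, score 88.9), Klhl38 (999 bp, 137) and Med24 (997 bp, 138). Just outside were WT only peaks at Fam187a (1007 bp, 127), Mir16-2 (1010 bp, 223) and Krt79 (1016 bp, 145). The members with the shortest distance to a Kap1 KO peak were at Ptges (26 bp), Ggta1 (36 bp) and Abhd15 (52 bp). On the other side, promoter peaks at Gm16140, Mamstr and Sufu shared 20, 35 and 120 bp with a Kap1 KO peak and were no members.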

How the data were processed

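ChIP-seq peak lists of MEFs (H3K27ac and H3K9me3, WT and Kap1 KO) and of Hepa 1.6 cells (KAP1 and SETDB1) were used. The authors mapped reads to mm9 with Bowtie2 2.2.1 and, with MACS 1.4, called peaks over total input. They deposited positions with a score, −10 times the log10 p-value of MACS, which saturates. A cutoff score of 80 is stated, and the MEF lists start at 50.0 to 50.03. Other libraries of the study were not used here, and a few items are not reported here.

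Transcript starts and sequences came from GENCODE vM1 and the NCBIM37 genome, the build of the lists. Each member was assigned the closest start to its middle, protein-coding transcripts first. Peaks were compared by shared bases. Shares carry exact Clopper-Pearson 95% intervals. Members, gene lists and alternatives were chosen with earlier results of these data known. Named are the 20 highest-scoring protein-coding members, up to 4 per gene list, up to 12 with each other mark, the widest, those in the longest run and those at the limits. Further genes were named after their values were seen. Python 3.11.15, pandas 2.3.3, scipy 1.17.1, matplotlib 3.10.9 and bedtools 2.31.1 were used, and the overlap step was tested on simulated data.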

Additional observations from a re-analysis of the deposited data

How the results depend on the processing

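The 10 main values were recomputed under 6 alternatives, which gave 60 values. Of these, 37 stayed within the 95% interval of the main value or, for the number of members, within 1.5 times of it. The alternatives for the width, for another start and for CpG islands were added after seeing the data. With only the top 50% of WT peaks by score, all 10 moved. The members numbered 138 (1.51% of promoter peaks), with a median score of 1328 and a median width of 2162 bp. Of them 5.8% had WT H3K9me3, 4.35% Kap1 KO H3K9me3, 15.9% KAP1, 21.0% a Kap1 KO H3K27ac peak within 5 kb and 55.8% a CpG island-like start, and 18.4% of their genes had a Kap1 KO peak at another start. With WT H3K27ac scores of at least 80, the percent was 6.83%, the median score 216 and the median width 1412 bp. Within 500 bp of a start, these were 7.2% and a median score of 178, with 33.7% CpG island-like starts. With protein-coding transcript starts only, the percent was 6.36% and the median score 183, with 24.2% within 5 kb, 25.4% at another start and 39.4% CpG island-like. Counting a Kap1 KO peak within 1 kb as shared gave 7.61%, with 22.2% within 5 kb. Asking for 50% of the shorter peak to be covered moved none of the 10. Each alternative changes which peaks are members, and beyond that the cause was not tested.

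No paired analysis was possible because each genotype had 1 library per mark and no test was run between genotypes. The depth of the libraries is unknown, so a missing peak sets no upper limit on the signal. Scores at the ceiling do not rank peaks, and peaks within 1 library are not replicates of a condition.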
